A study of Homo sapiens with 4 samples.

Results

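The MAP kinase phosphatase genes of the DUSP (dual-specificity phosphatase) family were followed between 4 h and 8 h of merbarone treatment. The 10 members, DUSP1, DUSP2, DUSP4, DUSP5, DUSP6, DUSP7, DUSP8, DUSP10, DUSP14 and DUSP16, were chosen by gene symbol and are 10 of the 23459 genes listed in each library. RNA-Seq was performed on hTERT RPE-1, a wild type human line from the retinal pigment epithelium that is kept dividing by telomerase. Both groups were serum starved for 48 h in medium with 0.1% FBS and then exposed to 200 μM merbarone, a drug that blocks the catalytic cycle of DNA topoisomerase II, for 4 h (2 libraries) or 8 h (2 libraries). Untreated cells were not analysed here, so time of exposure and time in low serum cannot be told apart, and each comparison is of the later with the earlier time.

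MAP kinases (ERK, JNK and p38) pass signals from growth factors and stress to the nucleus, and are active while a threonine and a tyrosine of their activation loop carry phosphate. MAP kinase phosphatases remove both phosphates and so switch the kinases off. Many of their genes are transcribed in response to the same kinases, which makes them negative feedback regulators. They are commonly sorted by place and preference into inducible nuclear enzymes (DUSP1, DUSP2, DUSP4 and DUSP5), cytoplasmic enzymes that act on ERK (DUSP6 and DUSP7) and enzymes that prefer JNK and p38 (DUSP8, DUSP10 and DUSP16). DUSP14 is a small atypical phosphatase without the kinase-binding domain of the others.

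From 4 h to 8 h, 6 of the 10 members rose, 2 fell and 2 did not pass the test. DUSP1 rose by the most, 2.48-fold, and DUSP4, DUSP5 and DUSP7 rose between 1.56-fold and 1.83-fold. DUSP8 and DUSP16, both with a preference for JNK and p38, fell to 0.581 and 0.618 of their 4 h level. The third gene of that kind, DUSP10, rose 1.29-fold, and DUSP14 rose 1.24-fold. The test was edgeR's quasi-likelihood test on the 12559 genes that exceeded 1 CPM in 2 or more libraries, and a gene passed with a Benjamini-Hochberg adjusted p below 0.05 over all of them. All 10 members were among the genes tested. By this test 19.9% of all genes tested were higher at 8 h and 18.8% lower.

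Values per library are TMM-normalized counts, which are the counts divided by the effective library size and multiplied by the mean effective library size. The libraries held 8064450 to 10324697 counts. The label of the line was checked against marker genes. Of 12 markers of retinal pigment epithelium, MITF, OTX2 and SERPINF1 exceeded 1 CPM in all 4 libraries. The visual cycle and pigment genes RPE65, RLBP1, LRAT and TYRP1 had 0 to 7 counts, and BEST1 had 2 to 6. TYR and DCT had 0 in every library, which allows up to 3 counts or 0.281 to 0.389 CPM. The 12 markers summed to 96.6 to 102.7 CPM at 4 h and 110.6 to 118.8 CPM at 8 h. Of 6 simple epithelial markers, KRT8, KRT18 and KRT7 exceeded 1 CPM in all libraries while KRT19 and EPCAM had 0 counts, and the list summed to 743.6 to 797.6 CPM at 4 h and 668.0 to 723.1 at 8 h. Of 5 mesenchymal markers 4 exceeded it, with sums of 22078 to 22396 CPM at 4 h and 27726 to 29065 at 8 h. Of 6 markers of other cell types only CD68, a lysosomal gene, did, and these summed to 55.1 to 57.1 CPM at 4 h and 71.3 to 76.1 at 8 h. Some markers moved with time, as VIM, FN1, CD68 and KRT7 rose (log2FC 0.36, 0.36, 0.39 and 0.46) and KRT18 and COL1A1 fell (−0.51 and −0.80), with adjusted p-values by edgeR from 9.43e-06 to 0.00298. Their part in the results below was not tested.

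The promoter letters of the members are shown first, since the members moved in opposite directions and cAMP response elements (CREs), through which CREB and related factors act, are known in promoters of this family, that of DUSP1 among them. The RefSeq promoter table of GRCh38.p14 held 8 of the 10 members, with 9 windows that run from 250 bases before to 50 bases after a transcription start. DUSP4 and DUSP5 were not in it. DUSP1 and DUSP8 are shown because they hold the full element, and DUSP7 and DUSP16 because they rose and fell without it. Capitals mark TGACG on either strand and TATAAA, and all sequences run 5′ to 3′ on the strand of the gene.
DUSP1: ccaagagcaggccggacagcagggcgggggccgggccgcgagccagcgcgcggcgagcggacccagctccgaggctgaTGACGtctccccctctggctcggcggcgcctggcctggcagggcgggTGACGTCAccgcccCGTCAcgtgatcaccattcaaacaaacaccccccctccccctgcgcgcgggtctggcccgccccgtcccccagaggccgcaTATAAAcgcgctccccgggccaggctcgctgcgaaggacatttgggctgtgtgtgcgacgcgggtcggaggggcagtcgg
DUSP8: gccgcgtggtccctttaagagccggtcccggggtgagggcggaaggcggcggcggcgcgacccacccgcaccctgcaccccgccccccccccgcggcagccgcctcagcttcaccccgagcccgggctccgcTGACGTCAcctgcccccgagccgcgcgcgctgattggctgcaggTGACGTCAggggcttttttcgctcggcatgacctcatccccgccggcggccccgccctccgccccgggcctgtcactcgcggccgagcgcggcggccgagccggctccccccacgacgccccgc
DUSP7: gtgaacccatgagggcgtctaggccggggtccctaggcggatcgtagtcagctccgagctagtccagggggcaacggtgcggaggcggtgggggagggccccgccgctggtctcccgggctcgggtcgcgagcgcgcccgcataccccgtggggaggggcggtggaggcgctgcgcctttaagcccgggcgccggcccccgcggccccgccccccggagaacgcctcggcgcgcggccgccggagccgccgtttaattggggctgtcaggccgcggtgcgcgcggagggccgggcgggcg
DUSP16: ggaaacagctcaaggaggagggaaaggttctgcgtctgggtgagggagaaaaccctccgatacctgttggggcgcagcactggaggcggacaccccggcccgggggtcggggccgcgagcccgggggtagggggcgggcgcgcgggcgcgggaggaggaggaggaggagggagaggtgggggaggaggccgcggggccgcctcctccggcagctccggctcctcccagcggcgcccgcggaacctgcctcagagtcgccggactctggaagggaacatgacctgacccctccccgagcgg
These windows lie at chr5:172771146-172771445, chr11:1572222-1572521, chr3:52056522-52056821 and chr12:12562814-12563113 in the order shown, all on the minus strand of GRCh38.p14.

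The full CRE, TGACGTCA, was found in 1.85% of all 35116 promoter windows of the same length. DUSP1 held 1 copy, at position −125 from the start, and DUSP8 held 2 copies, at −118 and −74. Thus 1 of the members with a full CRE rose and the other fell. The core TGACG, which every full CRE holds on both strands, was in 24.6% of all windows. Outside the full elements it occurred at −172 and −111 in DUSP1 and at −4 in the window of the downstream start of DUSP10. DUSP1 also held TATAAA at −30, a match found in 11.5% of all windows. The E-box CACGTG, in 7.26% of all windows, was at −108 in DUSP1, where it shares bases with a core, and at −113 in DUSP2. The AP-1 motif TGANTCA (7.71% of all windows), the ETS motif CCGGAAG (10.3%) and the CArG box of serum response factor (1.29%) had 0 matches in the 9 windows. DUSP6, DUSP7, DUSP14, DUSP16 and the upstream start of DUSP10 had no match to any of the 7 motifs searched on both strands, which says only that these letters are not in these windows.

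**Figure D1:**
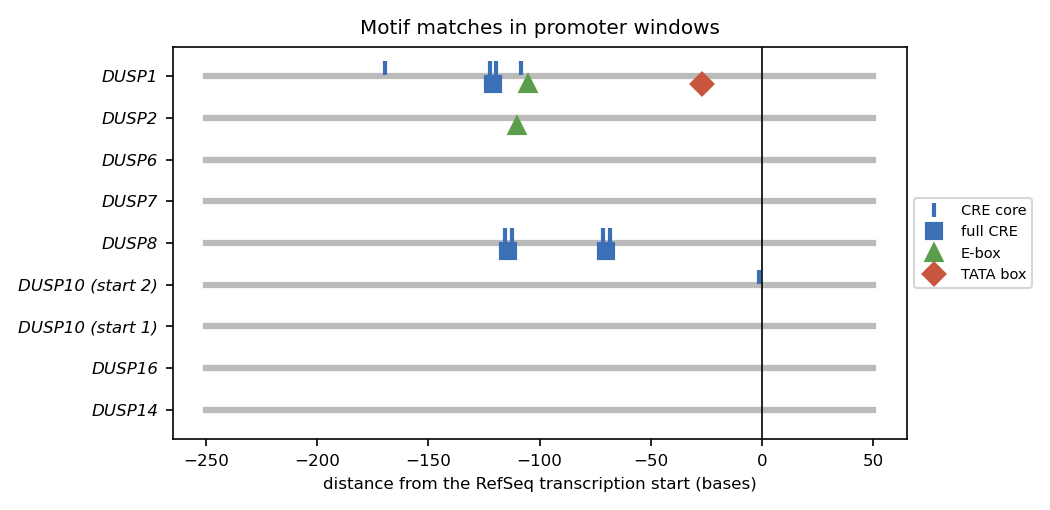
Motif matches in the 9 promoter windows of 8 members (horizontal axis, distance from the RefSeq transcription start in bases, each grey bar a window). The full CRE (blue square) appears once in DUSP1 and at −118 and −74 in DUSP8.

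Of the 4 genes for nuclear enzymes, 3 rose and 1 did not pass. DUSP1 (chromosome 5, 172195099 to 172198198, minus strand, hg19) encodes a nuclear phosphatase of p38, JNK and ERK and is a classical immediate-early gene. It had 4732 and 4838 normalized counts in the 4 h replicates against 11401 and 12291 in the 8 h replicates, so both later libraries lay far above both earlier ones. Its mean went from 4785 ± 75.2 to 11846 ± 629 (SD, n = 2 each), with a log2FC of 1.31 (standard error, SE, 0.07, adjusted p = 2.58e-10 by edgeR). DUSP1 was the only member with an absolute log2FC above 1, the threshold that with an adjusted p below 0.05 made a DEG. DEGs were 1.45% of all genes tested in the higher direction and 3.88% in the lower direction, where 0 members were DEGs by edgeR, Limma-Voom or DESeq2 and 2 were lower at an unadjusted p under 0.05. By log2FC, DUSP1 was at rank 77 of the 12559 genes.

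DUSP4 (chromosome 8, 29190581 to 29208201, minus strand) encodes a nuclear phosphatase close to DUSP1. Its normalized counts were 763.7 and 816.8 at 4 h against 1396 and 1506 at 8 h, with no overlap between the times. The log2FC was 0.88 (SE 0.09, adjusted p = 2.07e-07 by edgeR). DUSP5 (chromosome 10, 112257665 to 112271291, plus strand) encodes a nuclear phosphatase specific for ERK. It had 1844 and 1548 normalized counts at 4 h against 2907 and 2541 at 8 h. The times did not overlap, although replicates of this gene differed more than those of DUSP1 or DUSP4, with a coefficient of variation of 12.3% at 4 h and 9.49% at 8 h. Its log2FC was 0.68 (SE 0.09, adjusted p = 8.96e-06 by edgeR).

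DUSP2 (chromosome 2, 96808908 to 96811179, minus strand) encodes the fourth nuclear enzyme, best known from activated lymphocytes. It was close to the limit of detection, with 24 and 17 raw counts at 4 h against 16 and 7 at 8 h. The exact 95% Poisson intervals of these counts ran from 9.90 to 35.7 at 4 h and from 2.81 to 26.0 at 8 h, and cover counting error only. The libraries of the 2 times overlapped, and the log2FC of −0.52 (SE 0.43, adjusted p = 0.361 by edgeR) did not pass. Leaving out single libraries gave a log2FC from −1.08, without replicate 1 of 8 h, to −0.17, without replicate 2 of 8 h. A change of this gene was not detectable at this depth.

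**Figure D2:**
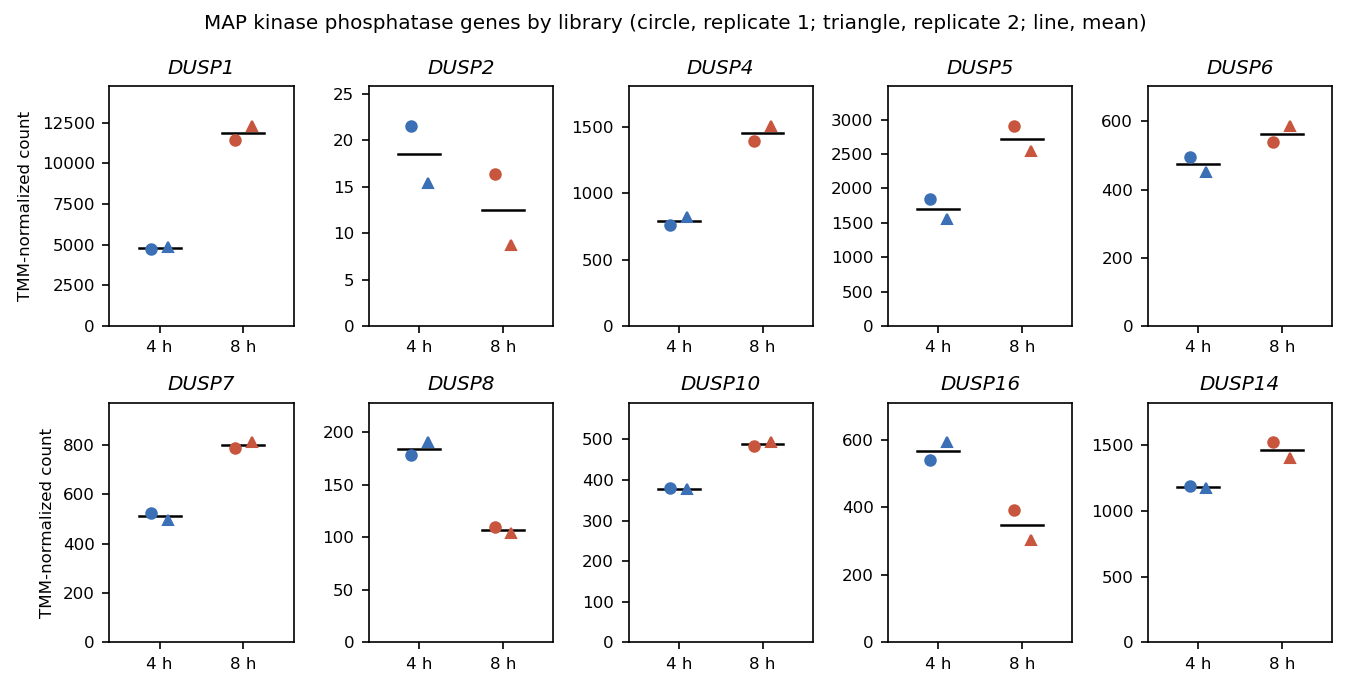
TMM-normalized counts of the 10 members in each library (vertical axes from 0, each with its own range), at 4 h (blue) and 8 h (red), with circles for replicate 1, triangles for replicate 2 and lines for means of 2. The 8 h libraries lay above both 4 h libraries in 7 genes, below them in DUSP8 and DUSP16, and overlapped in DUSP2.

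Of the cytoplasmic ERK phosphatases, DUSP7 (chromosome 3, 52082935 to 52090587, minus strand) had 525.0 and 495.0 normalized counts at 4 h against 786.5 and 808.9 at 8 h. Both 8 h libraries were higher and replicates differed little. The log2FC was 0.64 (SE 0.09, adjusted p = 2.40e-05 by edgeR). DUSP6 (chromosome 12, 89741012 to 89746278, minus strand), whose transcription is widely read as a gauge of ERK activity, had 495.4 and 452.4 at 4 h against 540.0 and 586.5 at 8 h. Its libraries did not overlap either, but the log2FC of 0.25 (SE 0.10, adjusted p = 0.0620 by edgeR) did not pass. It passed with an adjusted p of 0.0328 without replicate 1 of 8 h and with 0.0337 when the replicate number was a block. Per transcript length, the ratio of DUSP7 to DUSP6 was 1.14 and 1.18 in the 4 h libraries against 1.57 and 1.49 in the 8 h libraries. The difference between the changes of both genes was not tested.

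The genes for JNK and p38 phosphatases were divided. DUSP8 (chromosome 11, 1575281 to 1593501, minus strand), most studied in brain and heart, had 178.6 and 190.4 normalized counts at 4 h against 109.4 and 104.4 at 8 h. Both later libraries were lower, with a log2FC of −0.78 (SE 0.16, adjusted p = 0.000861 by edgeR). It overlaps KRTAP5-AS1, a listed gene on the other strand with 5 to 17 raw counts per library against 84 to 210 for DUSP8. GENCODE also places non-coding genes on the strand opposite to DUSP1 (1 gene), DUSP6 (1 gene) and DUSP16 (2 genes), for which no counts were matched here. Reads from them cannot be told apart from those of the members if the counting ignored strand. DUSP16 (chromosome 12, 12626216 to 12715797, minus strand), whose product shuttles between nucleus and cytoplasm, had 541.1 and 592.0 at 4 h against 391.7 and 304.4 at 8 h. The times did not overlap, and the 8 h replicates of DUSP16 were the least alike among the members that passed, with a coefficient of variation of 17.7%. Its log2FC was −0.69 (SE 0.12, adjusted p = 0.000132 by edgeR), and it ran from −0.90 to −0.53 when 1 library at a time was left out.

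DUSP10 (chromosome 1, 221874766 to 221915431, minus strand), which encodes a phosphatase of p38 and JNK, moved the other way. It had 379.6 and 377.1 normalized counts at 4 h against 483.8 and 492.0 at 8 h, with replicates closer than in any other member. The log2FC was 0.37 (SE 0.10, adjusted p = 0.00866 by edgeR). Without replicate 1 or replicate 2 of 4 h the log2FC was 0.36 in both cases and the adjusted p 0.0666 and 0.0670, so this call needed both 4 h libraries. Per transcript length, DUSP10 was at 1.80 and 1.64 times the level of DUSP16 in the 4 h libraries, and at 3.18 and 4.16 times at 8 h. Against DUSP8, the ratios were 3.96 and 3.69 at 4 h against 8.24 and 8.78 at 8 h.

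DUSP14 (chromosome 17, 35849997 to 35873603, plus strand) had 1186 and 1174 normalized counts at 4 h against 1520 and 1402 at 8 h. Both 8 h libraries were higher, with a log2FC of 0.31 (SE 0.08, adjusted p = 0.00538 by edgeR). Without replicate 1 or replicate 2 of 4 h the adjusted p was 0.0562 and 0.0591. It was 0.0574 with library size alone in place of TMM, a scaling that shifted the median log2FC of all genes to −0.11, and relative to that median DUSP14 was still at 0.31.

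In 7 of the 10 members both 8 h libraries lay above both 4 h libraries, against 34.8% of all genes tested, and in 2 both lay below, against 34.9%. The median log2FC of the members was 0.34, and that of all genes tested was 0.00, with quartiles of −0.31 and 0.26. The members were chosen with earlier results of these data known, and the part of that choice in these differences was not tested. In bulk RNA, a change in the share of cells that express a gene and a change in the RNA per cell cannot be told apart.

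**Figure D3:**
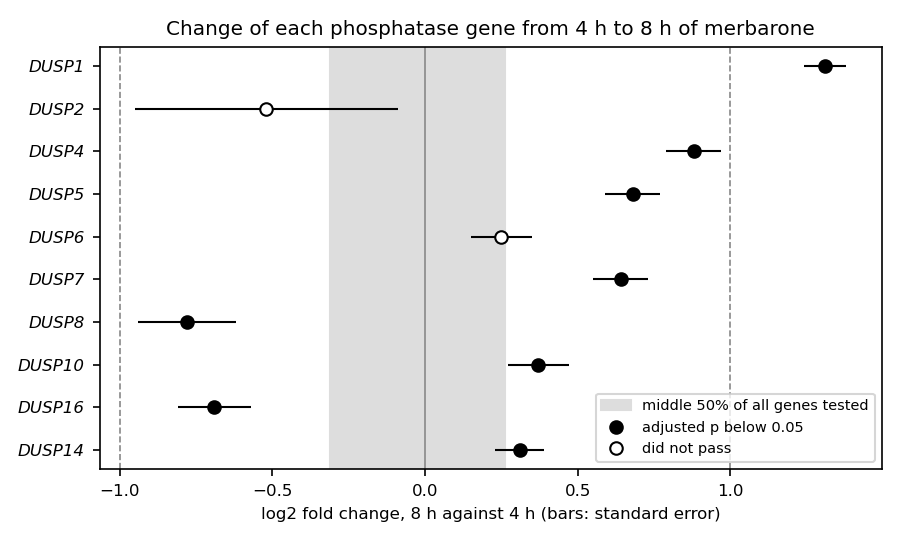
The log2FC of each member, 8 h against 4 h, with its standard error (horizontal axis, filled points for an adjusted p below 0.05, dashed lines at −1 and 1). The grey band spans −0.31 to 0.26, the middle of all genes tested, and DUSP1 is the only member beyond a dashed line.

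Levels of the members could be compared with each other after division by the length of the canonical GENCODE transcript, as CPM per kb. At 4 h DUSP1 had the highest level, at 245.2 and 250.7 CPM per kb, followed by DUSP14 at 83.96 and 83.08 and DUSP5 at 77.66 and 65.21. DUSP7, DUSP10, DUSP4 and DUSP6 formed a close middle group between 13.0 and 16.3, in which the libraries of the neighbours DUSP10 and DUSP4 overlapped. DUSP16 followed at 8.47 and 9.27, DUSP8 at 3.86 and 4.12, and DUSP2 was lowest at 1.33 and 0.954. At 8 h DUSP1 was at 590.8 and 636.9 CPM per kb. DUSP5, at 122.4 and 107.0, and DUSP14, at 107.6 and 99.18, were then neighbours whose libraries overlapped. DUSP4 moved from the sixth to the fourth place, at 26.22 and 28.29, while DUSP16, DUSP8 and DUSP2 stayed the lowest. Bowtie aligns without gaps and loses reads across splice junctions, by a share that can differ between the members and was not measured.

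Summed over the 10 members, the level was 480.7 and 472.2 CPM per kb at 4 h against 916.0 and 940.7 at 8 h. DUSP1 made up 51.0% and 53.1% of this sum at 4 h against 64.5% and 67.7% at 8 h. Without DUSP1 the other 9 members summed to 235.5 and 221.5 at 4 h and to 325.2 and 303.8 at 8 h. The 3 genes for JNK and p38 phosphatases, in contrast, summed to 27.63 and 28.58 at 4 h against 27.99 and 26.84 at 8 h, with DUSP10 higher and DUSP8 and DUSP16 lower at 8 h. Their share of the family fell from 5.75% and 6.05% to 3.06% and 2.85%. The cytoplasmic pair summed to 30.54 and 28.37 at 4 h against 39.94 and 41.97 at 8 h. These sums describe the 4 libraries and were not tested.

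**Figure D4:**
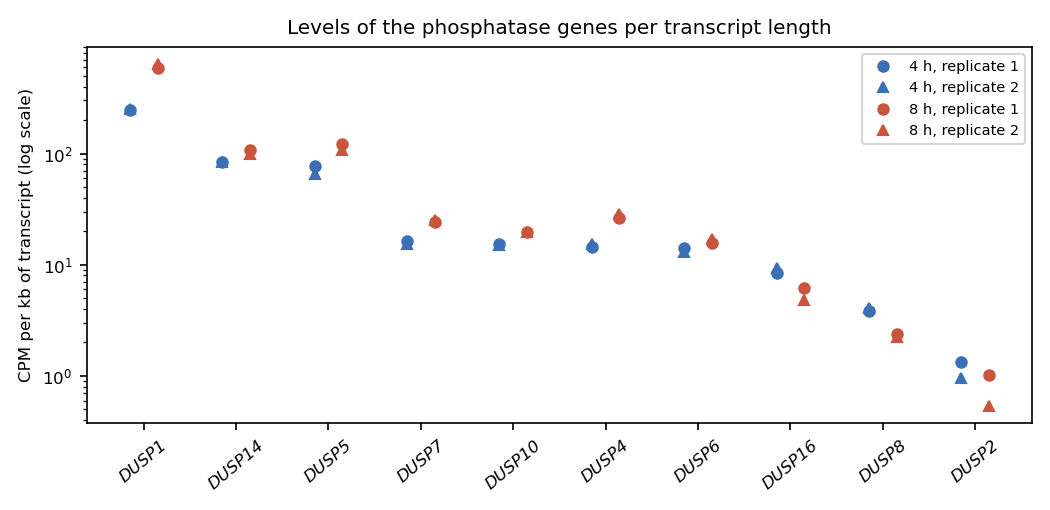
Levels of the members in CPM per kb of transcript (vertical axis, log scale) in each library, ordered by the mean at 4 h. DUSP1 lies highest at both times and DUSP2 lowest, and DUSP4 rises from among the middle group to 26.22 and 28.29 at 8 h.

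The members that rose and those that fell overlapped in gene span and in 3′ UTR elements. The canonical transcripts of DUSP8 and DUSP16, which fell, held 7 exons each. Those of the 6 members that rose held 3 or 4. Both are below the median of 9 exons over the 11701 tested genes with a coding transcript. Exon number was not compared between all genes that rose and all that fell, and whether it bears on the changes was not tested. The genes that fell spanned 18221 bases (DUSP8) and 89582 bases (DUSP16), the longest of the family. Those that rose spanned from 3100 bases (DUSP1) to 40666 bases (DUSP10). The canonical 3′ UTRs of 8 members held the pentamer ATTTA, the core of the AU-rich elements that mark unstable mRNAs, which 74.5% of 11701 tested genes with a coding transcript also held. The nonamer TTATTTATT was in 3 of the 10 members, with 2 copies in DUSP1, 1 in DUSP4 and 1 in DUSP8, and in 9.87% of those genes. The 3 members with the nonamer again comprised 2 that rose and 1 that fell.

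The genes whose pattern over the 4 libraries was nearest to that of DUSP1, by the root mean square difference of deviations of log2-CPM from the mean of the gene, were ZNF516 (0.0538), FOS (0.0572) and TRIB3 (0.0622). FOS, the AP-1 subunit and immediate-early gene, had 350.0 and 398.0 normalized counts at 4 h against 877.5 and 985.3 at 8 h. Nearest to DUSP8, whose log2FC was the lowest among the members that passed, were OFD1 (0.00813), RRM1 (0.0137) and RAD17 (0.0155). DUSP16 was within the standard error of DUSP8, and was the lower of both (−0.90 against −0.82) without replicate 1 of 8 h and after correction for the trend with abundance (−0.71 against −0.67). With only 4 libraries many genes look alike, and 20 of 12550 genes came within 0.1 of DUSP1 and 325 within 0.1 of DUSP8.

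The other DUSP genes were compared as a fixed list of 18, of which 17 were listed and 10 tested. By edgeR 0 of them rose and 2 fell, with a median log2FC of −0.06. For this list and the lists below, the shares among all genes tested were 19.9% higher and 18.8% lower. At an unadjusted p under 0.05, 0 were higher and 3 lower, and Limma-Voom and DESeq2 also called 0 higher. The number lower was 1 with DESeq2, after correction for the trend with abundance, and without either 4 h replicate. DUSP22, an atypical phosphatase that acts on JNK signalling, fell from 262.0 and 281.0 normalized counts at 4 h to 188.2 and 166.5 at 8 h (log2FC −0.61, SE 0.14, adjusted p = 0.00162 by edgeR). The other that fell, DUSP19, had only 10 to 30 raw counts per library. DUSP3, the most abundant of the list in raw counts, had a log2FC of 0.13 (SE 0.08, adjusted p = 0.179 by edgeR). DUSP9, the remaining cytoplasmic ERK phosphatase of the family, had 1 to 4 counts and was not tested. Of 6 pseudogenes of DUSP5 and DUSP8, only DUSP5P1 was listed, with 0 or 1 count per library. Only reads with a single position were kept, so reads matching both a gene and its pseudogene were dropped. The pseudogene counts therefore do not measure how many reads DUSP5 or DUSP8 lost in this way. Whether this list and the 10 members differ was not tested.

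Among the kinases, 2 of 12 tested MAP kinase genes rose, 2 fell and 8 did not pass. Without replicate 2 of 4 h 1 was higher, and 4 were lower with library size alone or with the replicate block. MAPK6, which encodes the atypical kinase ERK3, rose from 437.9 and 438.8 normalized counts at 4 h to 885.7 and 731.8 at 8 h (log2FC 0.89, SE 0.10, adjusted p = 2.21e-06 by edgeR). MAPK8, which encodes JNK1, rose with a log2FC of 0.56 (SE 0.14, adjusted p = 0.00402 by edgeR). MAPK14, which encodes p38 alpha, fell with a log2FC of −0.41 (SE 0.10, adjusted p = 0.00249 by edgeR), and NLK with −0.86 (SE 0.18, adjusted p = 0.000861 by edgeR). One level up, 3 of 6 tested MAP2 kinase genes rose, namely MAP2K7, MAP2K2 and MAP2K3, with log2FC values of 0.59, 0.49 and 0.31, and 0 fell by edgeR, by Limma-Voom or DESeq2, or at an unadjusted p under 0.05. MAP2K7 activates JNK, MAP2K3 p38 and MAP2K2 ERK. Of 23 tested RAF and MAP3 kinase genes 3 rose and 4 fell, each by less than 1 on the log2 scale. These counts changed to 1 higher and 0 lower without replicate 2 of 4 h, and 1 each way without replicate 1 of 4 h or with DESeq2.

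Of 11 kinases that act below MAP kinases, 3 rose and 3 fell. Without replicate 1 of 4 h 1 was higher and 0 were lower, and 1 was higher without replicate 2 of 4 h, with library size alone, or after correction for the trend with abundance. MKNK2, which encodes a kinase of the translation factor eIF4E, rose from 1862 and 1803 normalized counts to 3474 and 3894 (log2FC 1.01, SE 0.08, adjusted p = 1.35e-08 by edgeR). The 3 that fell all encode kinases of the RSK and MSK group, RPS6KA1, RPS6KA3 and RPS6KA4, with log2FC values of −0.64, −0.48 and −0.32. RPS6KA2, of the same group, rose with 0.21. Among 7 tested other phosphatases of MAP kinases, PPM1D, PPM1A and PPP2CB rose, with log2FC values of 0.41, 0.34 and 0.23, and 0 fell by edgeR, Limma-Voom or DESeq2, or at an unadjusted p under 0.05. Without replicate 2 of 4 h 0 were higher, with library size alone 1 was higher and 1 lower, and after correction for the trend with abundance 1 was lower.

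Of 24 tested genes that serve as outputs or feedback regulators of ERK, 5 rose, 6 fell and 13 did not pass, with a median log2FC of 0.00. FOS rose with a log2FC of 1.31 (SE 0.10, adjusted p = 1.22e-08 by edgeR), and SPHK1 and EPHA2 with 0.58 and 0.50. EGR1, an immediate-early transcription factor, fell from 3634 and 3675 normalized counts at 4 h to 1066 and 1297 at 8 h (log2FC −1.63, SE 0.09, adjusted p = 2.58e-10 by edgeR). ERRFI1, a feedback inhibitor of the EGF receptor, fell with −1.27 and ETV1 with −0.92. Over all 7 lists, 19 of 93 tested genes rose and 17 fell. These shares are close to the 19.9% higher and 18.8% lower among all genes tested.

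**Figure D5:**
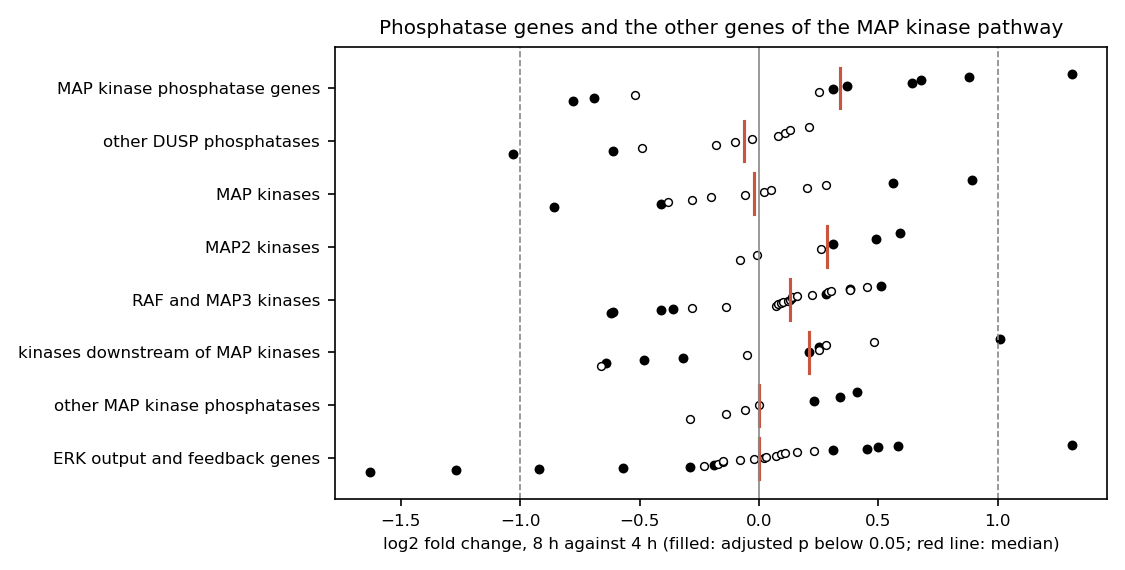
The log2FC of each tested gene, 8 h against 4 h (horizontal axis), for the 10 members and 7 lists of MAP kinase pathway genes, with filled points for an adjusted p below 0.05 and a red line at the median of each list. The members had a median of 0.34, and the ERK outputs spread from −1.63 (EGR1) to 1.31 (FOS) around a median of 0.00.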

How the data were processed

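Total RNA (150 ng) was converted to stranded polyadenylated libraries and read once per fragment. The authors mapped reads to hg19 with Bowtie (version 1.2.0 in the submitters' processing notes), kept reads with a single position, and deposited raw counts per gene, without normalization or pooling. The annotation, counting tool and strand setting are not given in the sources used here. It is therefore not known whether the counts keep reads of genes overlapping on opposite strands apart. Genes were listed by NCBI Gene identifier, and the RefSeq table of GRCh38.p14 named 23308 of 23459, including all 10 members. Positions, transcript lengths and 3′ UTRs came from GENCODE on GRCh37 (hg19), and promoters from RefSeq on GRCh38.p14, used separately.

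Genes that exceeded 1 CPM in 2 or more libraries were tested (12559, with 99.90% to 99.92% of the counts) after TMM normalization, with edgeR 4.0.16 in R 4.3.3, with time as the only term. The biological coefficient of variation was 6.52%. Standard errors are the log2FC divided by the square root of F. Limma-Voom (limma 3.58.1), DESeq2 1.42.0, edgeR's glmTreat, other scalings and filters, a correction for the trend with abundance, a replicate block and leaving out each library were alternatives. The replicates are separate samples by their labels. The p-values weigh each change against the spread between replicates, estimated in part across all genes tested and not from the libraries of each gene alone. With 2 libraries per time an exact permutation test cannot go below 0.333. The named genes were the 10 members, up to 3 genes per direction and list with an adjusted p below 0.05 and a mean of at least 100 normalized counts at the higher time, and the 3 nearest patterns (pseudocount 0.5 on CPM) to the members with the largest rise and fall. DUSP3, DUSP9, DUSP19 and KRTAP5-AS1 were named after their values were seen. The members and lists were chosen with earlier results of these data known.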

Additional observations from a re-analysis of the deposited data

How the results depend on the processing

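No member changed sign under any of the alternatives run. The counts of 6 members higher and 2 lower at 8 h were kept within a factor of 1.5 under every alternative except edgeR's glmTreat, which tests for a log2FC beyond 1 and left 1 higher and 0 lower (DUSP1). Under glmTreat the log2FC values were 0.88 (DUSP4), 0.68 (DUSP5), 0.64 (DUSP7), −0.78 (DUSP8), 0.37 (DUSP10), −0.69 (DUSP16) and 0.31 (DUSP14), each with an adjusted p of 1.00. With library size alone, which moved the median of all genes to −0.11, DUSP10 (0.26, adjusted p = 0.0535) and DUSP14 (0.20, adjusted p = 0.0574) no longer passed. After correction for the trend with abundance DUSP14 did not pass either (0.21, adjusted p = 0.0524). DUSP2 was not tested with a CPM above 2 as the filter. Across all 12559 genes DESeq2 called 1792 higher and 1498 lower, against 2500 and 2367 with edgeR, and library size alone called 1698 and 3289.

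With 1 library left out in turn, the lone library was assumed to vary like the other time. The number of members higher ran from 4 to 7, and the log2FC from 0.18 to 0.31 for DUSP6, 0.35 to 0.38 for DUSP10 and 0.25 to 0.36 for DUSP14, whose calls changed. In the pathway lists, 19 genes higher and 17 lower became 10 to 18 and 8 to 18, with the fewest higher (10) without replicate 2 of 4 h and the fewest lower (8) without replicate 1 of 4 h. Library size alone gave 12 higher, DESeq2 10 lower, and glmTreat 0 higher and 1 lower, whereas 23 and 21 had an unadjusted p under 0.05 by edgeR. The causes were not tested, other than that glmTreat asks for a larger change and that fewer libraries leave less information.

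Both times share replicate numbers. The deviations of same-numbered libraries from the mean of their time had a correlation of 0.05 over all tested genes and 0.12 over those with a mean count of at least 100. With 2 pairs and no label of a shared culture or day, the numbers were not taken as a pairing. With the replicate number as a block, DUSP6 passed (log2FC 0.25, adjusted p = 0.0337), 7 members were higher and 2 lower, and the block changed no other call among the members. It gave 2829 genes higher and 2664 lower over all genes. Depth limits DUSP2, whose libraries held 7 to 24 counts.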
